A study of Mus musculus with 6 samples.

Results

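The 10 genes followed here are used as markers of the choroid plexus, and were measured in 6 RNA-seq libraries of mouse hypothalamus. They were Ttr, Folr1, Kl, Clic6, Aqp1, Otx2, Sostdc1, F5, Slc4a5 and Cldn2. They were taken by symbol from the 50559 genes of the deposited count table, and all 10 were found. The libraries, 3 per genotype, are labelled as wild type or as knockout of SRC-1, the nuclear receptor coactivator encoded by Ncoa1. The labels give no strain, age or sex, and do not name the deleted part of the gene or the cells in which it is missing. Whether each replicate was its own animal is not stated either, and p-values measure the spread between these libraries, which may be technical.

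The choroid plexus is the folded epithelium that hangs into the brain ventricles and secretes cerebrospinal fluid. Its cells exchange ions and water through apical and basal transporters, are joined by tight junctions that include claudin 2, and release transthyretin, the carrier of thyroxine and retinol, into the fluid. The hypothalamus borders the third ventricle, whose walls are lined by ependymal cells and tanycytes. The plexus lies in the roof of that ventricle and is not part of the hypothalamus.

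Totals ran from 36613507 to 46755553 counts of read pairs per library, so 1 count was worth 0.0219 to 0.0264 CPM (counts scaled to library size with TMM factors, the level used throughout). Ncoa1 had 5180, 4630 and 5406 counts in wild type, against 1692, 1478 and 1766 without SRC-1, and every library matched its label. In bulk tissue, fewer cells of a type and less RNA per cell cannot be told apart.

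The label did not hold for the set as a whole. Choroid plexus RNA is rich in Ttr, yet Ttr did not exceed 382 counts in any library. Folr1, Aqp1, Slc4a5 and Cldn2 stayed at or under 46 counts. Together the 10 genes made up between 0.003% and 0.00541% of all counts. Their library profiles also differed from one another. They are therefore called the listed genes below.

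Upstream sequence is shown for F5, Kl and Aqp1, so that the members with the lowest p in the genotype comparison below can be read beside their promoters. They are the 3 with the lowest p among the 6 of 10 genes matched in the RefSeq promoter table (built on GRCm38.p6). Each run below is the 250 bases before the gene's start on the plus strand, read 5′ to 3′ and located by exact match in GRCm39. Capitals mark AGGTCA or its reverse TGACCT, the half-site letters bound by many nuclear receptors, and would also mark TAATCC or its reverse GGATTA, the letters bound by Otx homeodomains.
F5, chr1:163979154-163979403: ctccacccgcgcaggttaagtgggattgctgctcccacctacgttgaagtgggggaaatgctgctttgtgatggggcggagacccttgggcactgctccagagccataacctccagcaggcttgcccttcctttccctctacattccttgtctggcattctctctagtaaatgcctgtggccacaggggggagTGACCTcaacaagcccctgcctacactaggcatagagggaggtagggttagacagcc
Kl, chr5:150875822-150876071: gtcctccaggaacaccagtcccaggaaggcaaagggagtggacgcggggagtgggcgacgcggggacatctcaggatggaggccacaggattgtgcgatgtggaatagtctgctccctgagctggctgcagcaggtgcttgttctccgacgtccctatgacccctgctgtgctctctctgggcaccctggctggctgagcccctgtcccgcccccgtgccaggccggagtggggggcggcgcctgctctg
Aqp1, chr6:55313034-55313283: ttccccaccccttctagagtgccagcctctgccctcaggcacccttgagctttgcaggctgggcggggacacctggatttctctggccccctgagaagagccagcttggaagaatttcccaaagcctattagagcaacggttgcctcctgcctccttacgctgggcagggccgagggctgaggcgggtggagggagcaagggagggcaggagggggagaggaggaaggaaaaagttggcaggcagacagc
The F5 window held 1 nuclear receptor half-site, and the other 2 windows held none. The Otx letters were in none of the 3. Among all 32851 RefSeq promoter windows of this length, 14.0% held AGGTCA and 6.25% held TAATCC, counting both strands. Of the 9 promoter windows that the table gives for those 6 genes, some with several starts, 1 held each motif. G and C made up 57.2% of the F5 window, 66.8% of the Kl window and 62% of the Aqp1 window. These matches describe the letters only.

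Per kilobase of exon, the mean level over the 6 libraries was 5.99 CPM for Clic6, 3.00 for Ttr, 1.91 for Kl and 0.876 for Sostdc1. Otx2 followed at 0.359, Folr1 at 0.281, Cldn2 at 0.240, F5 at 0.232 and Aqp1 at 0.106, and Slc4a5 was lowest at 0.0278 CPM per kilobase. By this measure Clic6 stood at the 61.8th percentile of all tested genes, Ttr at the 48.8th and Aqp1 at the 5.56th. In wild type, Clic6 (7.07 ± 1.39 CPM per kilobase) and Ttr (4.22 ± 3.57) did not differ beyond their summed SDs (n = 3), nor did Ttr and Kl (2.33 ± 0.0540). Of the next genes, Folr1 (0.424 ± 0.0783), F5 (0.316 ± 0.0474), Cldn2 (0.287 ± 0.0864) and Otx2 (0.284 ± 0.221) each lay within the summed SDs of the next in that order.

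**Figure D1:**
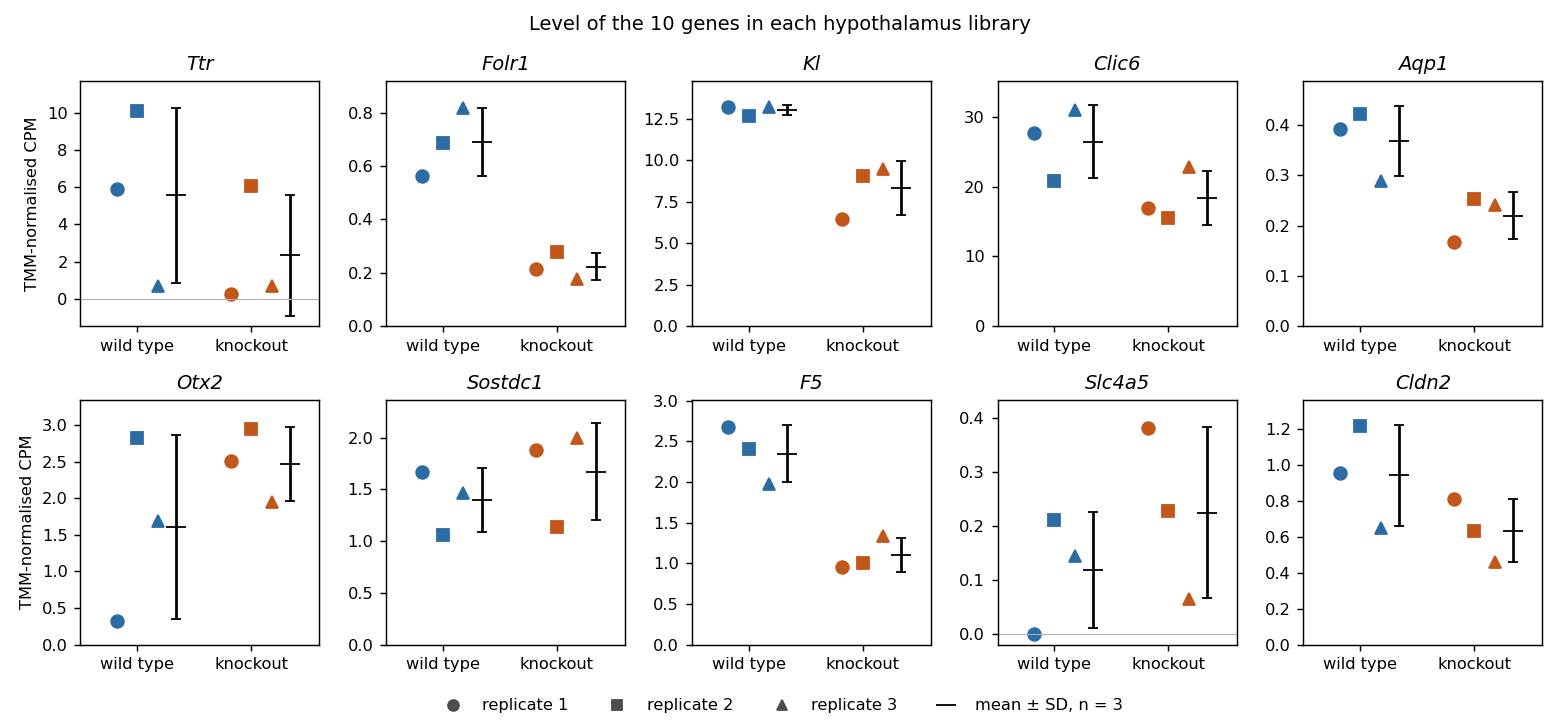
TMM-normalised CPM (vertical axes, each starting at or below 0) of the 10 listed genes in wild-type and knockout hypothalamus; symbols are replicates 1 to 3 and the black mark is the mean ± SD. Folr1, Kl, Aqp1 and F5 do not overlap between the genotypes, whereas Ttr is high in wild-type 1, wild-type 2 and knockout 2.

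Transthyretin (Ttr, chromosome 18, 20797266 to 20807383, plus strand, GRCm39) varied more between libraries than between genotypes. Its counts were 241, 382 and 29 in wild type, or 5.91, 10.1 and 0.698 CPM. They were 11, 241 and 32 in the knockout, or 0.262, 6.07 and 0.701 CPM. Libraries of both genotypes were thus high and low, with a 38.5-fold range over the 6, 14.5-fold within wild type and 23.2-fold within the knockout. The genotype means were 5.56 ± 4.70 and 2.35 ± 3.24 CPM (SD, n = 3 each). On the log2 scale the fold change, knockout minus wild type, was -1.26 ± 1.49 (SE) with an edgeR adjusted p of 0.826, and its 95% interval ran from -5.30 to 2.78. Leaving out knockout 2 gave -3.50, leaving out wild-type 3 gave -1.78 and leaving out wild-type 2 gave -0.50. Without knockout 1 it was -0.72, and without knockout 3 it was -0.81.

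The library pattern of Ttr was that of liver genes. Likeness was measured as the root mean square difference between log2 CPM profiles centred over the 6 libraries. Among 13920 other tested genes with a mean of at least 1 CPM and a symbol that is no clone, pseudogene or bare identifier, the 8 nearest to Ttr were Mat1a, Ambp, Fgg, Mup20, Hpd, Hpx, Cyp2e1 and Ahsg, with differences from 0.27 to 0.44. All 8 are known for expression in hepatocytes. Mat1a makes S-adenosylmethionine in liver, Fgg is the fibrinogen gamma chain, Hpx binds haem in plasma and Cyp2e1 is a liver cytochrome P450. Mat1a counts were 73, 108 and 8 in wild type, against 4, 76 and 13 without SRC-1. No listed gene came nearer to Ttr than Aqp1, at 1.61. The measure also grows with the size of a gene's swings between libraries, which were widest in Ttr among the listed genes.

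A list of 27 hepatocyte genes was drawn up after this pattern was seen and holds those 8. Albumin (Alb), its most abundant member, had 2197, 2713 and 137 counts in wild type, against 5, 1602 and 107 without SRC-1. The summed level of the 27 genes was 141, 181 and 11.2 CPM in wild type, against 2.91, 109 and 10.04 CPM without SRC-1. Of the 27, 9 were at 0 counts in knockout 1 and 1 in wild-type 3. In all 27 the 3 highest libraries were wild-type 1, wild-type 2 and knockout 2, as in Ttr but in no other listed gene. The same 3 libraries were highest in 1302 of all 20257 tested genes. Since the list was drawn up with this pattern in view, its 27 of 27 is a description and not a test. For every 100 hepatocyte counts there were 4.19, 5.57 and 6.21 Ttr counts in wild type, against 9.02, 5.59 and 6.99 without SRC-1, while Ttr itself had a 38.5-fold range. Against albumin alone the ratio was less even: there were 10.97, 14.1 and 21.2 Ttr counts for every 100 Alb counts in wild type, against 220, 15.04 and 29.9 without SRC-1, with knockout 1 far above the rest on 5 Alb counts. Mup3, Mup20 and the Serpina1 genes of this list have near-identical copies, and their counts are uncertain. The part of hepatocyte RNA in the Ttr level was not tested.

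**Figure D2:**
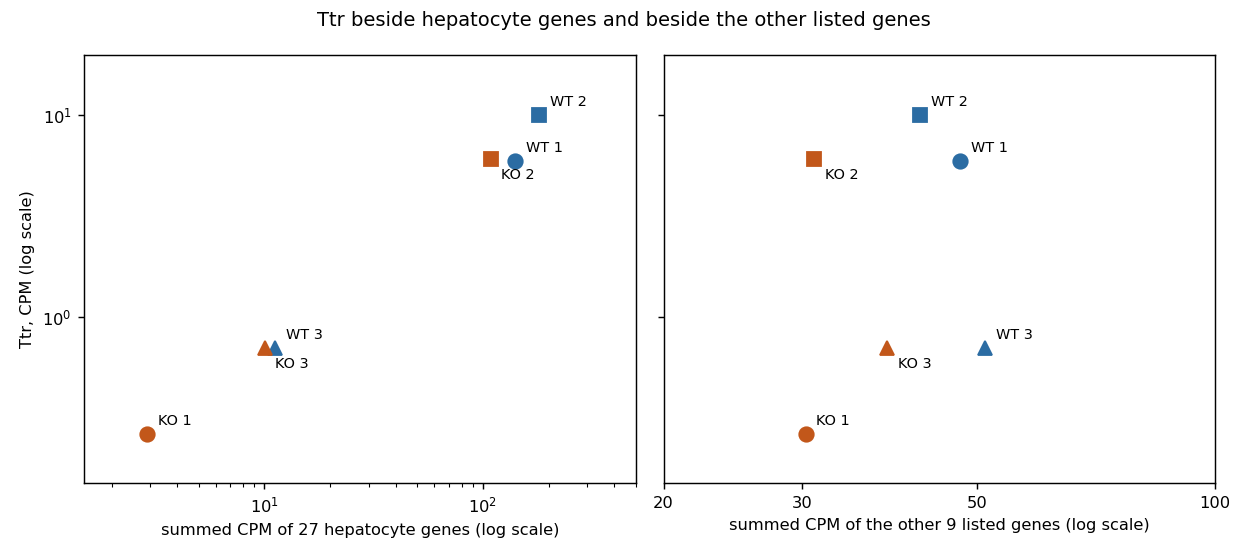
Ttr level per library (CPM, log scale) against the summed CPM of 27 hepatocyte genes (left, log scale) and of the other 9 listed genes (right, log scale); blue is wild type, orange is knockout, and each point is 1 library. Ttr and the hepatocyte sum are both high in wild-type 1, wild-type 2 and knockout 2, while the other 9 genes together range only from 30.3 to 51.2 CPM.

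For each 100 Ttr counts there were 125.9 to 2464 Kl counts, 205.5 to 6455 Clic6 counts and 4.56 to 117 Folr1 counts. Knockout 1, with the least Ttr, had the highest Kl and Clic6 ratios. The other 9 genes summed to 47.5, 42.3 and 51.2 CPM in wild type, against 30.3, 31.0 and 38.4 CPM without SRC-1. These sums did not overlap between the genotypes, and Clic6 and Kl made up most of them.

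The genotypes were compared across all 20257 genes with enough counts. At an edgeR adjusted p under 0.05, 0 of the 9 listed genes tested were called, where 0.834% of all tested genes were, 0.592% lower and 0.242% higher in the knockout. An unadjusted p under 0.05 was found for 4 of 9 (Folr1, F5, Kl and Clic6), against 13% of all tested genes. DESeq2 called 3 lower (Kl, F5 and Clic6), beside 533 lower among the 50559 genes it was given. Not every gene given to DESeq2 got an adjusted p, and Slc4a5 did not, so 50559 overstates the genes it could call. With limma-voom 0 were called, beside 81 lower among 20257 genes. Its version with quality weights per sample called 3 lower (Folr1, Kl and F5), beside 266 lower among 20257. The edgeR shares above are therefore not the background of these calls. The median log2 fold change of the 9 was -0.65 with 7 negative, beside 0.00 and 48.9% negative over all tested genes. Folr1 and Aqp1 passed the filter through wild type, since only 1 knockout library each reached its cutoff, so these counts over the tested genes are descriptions. Slc4a5 was too low to pass the filter.

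**Figure D3:**
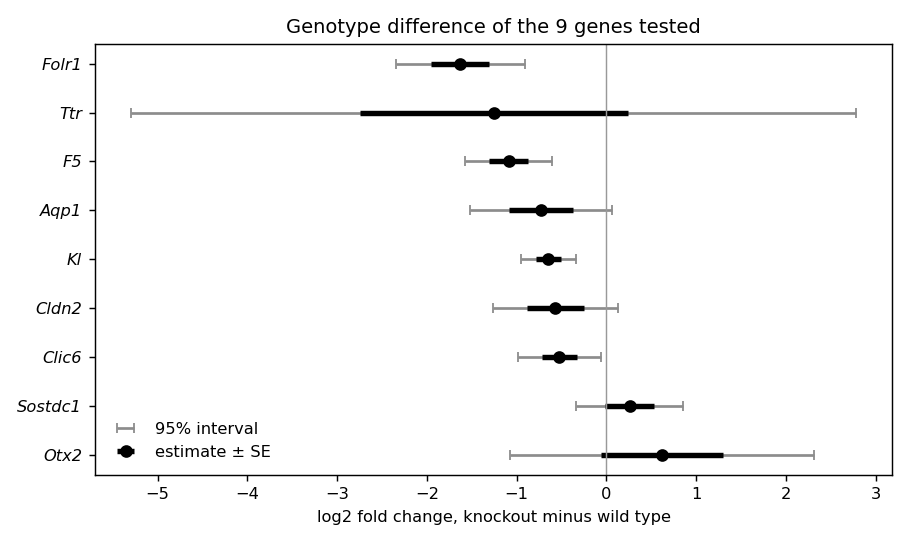
Log2 fold change, knockout minus wild type (horizontal axis), of the 9 tested genes from edgeR; thick bars are ± SE and thin bars 95% intervals. Intervals of Folr1, F5, Kl and Clic6 lie below 0 although none passed the adjusted threshold, and that of Ttr spans -5.30 to 2.78.

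Knockout libraries were below every wild-type library in 4 of the listed genes, Folr1, Kl, Aqp1 and F5, whereas 9.03% of all tested genes had such a gap. Folr1 and Aqp1 passed the filter through wild type, so this count is a description too. Folr1 (chromosome 7, 101507538 to 101519995, minus strand) encodes folate receptor alpha, which carries folate across the choroid plexus. It had 23, 26 and 34 counts in wild type, against 9, 11 and 8 without SRC-1, or 0.690 ± 0.127 against 0.222 ± 0.0514 CPM (SD, n = 3 each), 3.10-fold higher in wild type. Even the highest knockout library, with 11 counts, lay below the lowest wild-type one. The log2 fold change was -1.63 ± 0.32 with an edgeR adjusted p of 0.0519, which missed the threshold of 0.05. Counts this small carry wide counting error: the exact Poisson 95% interval was 3.45 to 15.8 for 8 counts and 23.5 to 47.5 for 34, covering counting error only.

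F5 (chromosome 1, 163979404 to 164047846, plus strand) is coagulation factor V, a cofactor of thrombin formation. It had 109, 91 and 82 counts in wild type, against 40, 40 and 61 without SRC-1, a mean of 2.35 ± 0.352 against 1.10 ± 0.207 CPM. The lowest wild-type library was above the highest knockout library, 1.97 against 1.34 CPM. The log2 fold change was -1.09 ± 0.22 (adjusted p 0.053 in edgeR). Exons of another gene, Gm16548, covered 3.52% of its exon bases.

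Kl (chromosome 5, 150876072 to 150917282, plus strand) encodes klotho, a co-receptor of fibroblast growth factor 23 that is also shed into the cerebrospinal fluid. Wild-type libraries were nearly alike at 13.2, 12.7 and 13.2 CPM, or 540, 481 and 549 counts. The knockout libraries held 6.46, 9.05 and 9.47 CPM, or 271, 359 and 432 counts, all lower, with knockout 1 lowest. Wild type was 1.57-fold higher (log2 fold change -0.65 ± 0.14, adjusted p 0.0593 in edgeR).

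Clic6 (chromosome 16, 92295035 to 92338129, plus strand), a chloride intracellular channel family member, was the most abundant of the set. It had 27.7, 20.7 and 30.9 CPM in wild type, against 16.9, 15.5 and 22.7 CPM without SRC-1. Knockout 3 was above wild-type 2, so the genotypes overlapped. Its log2 fold change was -0.52 ± 0.19 (edgeR adjusted p 0.321).

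Aqp1 (chromosome 6, 55313284 to 55325540, plus strand), the water channel of the apical plexus membrane, had few counts throughout. Its counts were 16, 16 and 12 in wild type, against 7, 10 and 11 without SRC-1. The knockout libraries were lower throughout, but the exact Poisson 95% interval of 11 counts, 5.49 to 19.7, takes in all 3 wild-type counts. The log2 fold change was -0.73 ± 0.36 with an edgeR adjusted p of 0.433.

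Cldn2 (X chromosome, 138701555 to 138712135, plus strand), the tight junction claudin of leaky epithelia, had 39, 46 and 27 counts in wild type, against 34, 25 and 21 without SRC-1. The groups overlapped, with knockout 1 above wild-type 3 in CPM. Its log2 fold change was -0.57 ± 0.32 (95% interval -1.27 to 0.13, edgeR adjusted p 0.51).

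Sostdc1 (chromosome 12, 36364168 to 36368451, plus strand), a secreted antagonist of BMP and Wnt signals, had 68, 40 and 61 counts in wild type, against 79, 45 and 91 without SRC-1. The lowest library of each genotype was replicate 2, and the groups overlapped. Sostdc1 had a log2 fold change of 0.26 ± 0.27 with a 95% interval from -0.34 to 0.86 and an edgeR adjusted p of 0.784.

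Otx2 (chromosome 14, 48894238 to 48905101, minus strand), the homeodomain factor that specifies the choroid plexus, was low in a single library. It had 13, 107 and 70 counts in wild type, against 105, 117 and 89 without SRC-1. Wild-type 1 held 0.319 CPM, and the other 5 libraries held 1.68 to 2.95. The log2 fold change was 0.62 ± 0.68 (edgeR adjusted p 0.806), and it moved to 0.13 when wild-type 1 was left out and to 1.29 when wild-type 2 was. Slc4a5 (chromosome 6, 83184561 to 83281927, plus strand), a sodium bicarbonate cotransporter of the plexus, had 0, 8 and 6 counts in wild type, against 16, 9 and 3 without SRC-1. The 0 in wild-type 1 allows up to 3 counts, or 0.0735 CPM. Slc4a5 did not pass the filter of the main comparison. Fitted with no filter, its log2 fold change was 0.91 (edgeR adjusted p 0.757). In DESeq2 it was 0.93 (unadjusted p 0.362), so neither fit called a genotype difference.

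The profiles of the listed genes fell near different genes of the hypothalamus and its surroundings, by the same measure as for Ttr. Nearest to Folr1 were Ager, Frzb, Egr1 and Crym, with differences of 0.19 to 0.23. Frzb and Crym are on the tanycyte marker list. Nearest to F5 were Zbbx, Cmtm8, Tekt1 and Tsku at 0.098 to 0.13, and Tekt1 encodes a tektin of ciliary microtubules. Nearest to Kl were Glp2r, Ezr, Gpc4 and Coch at 0.047 to 0.084.

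Clic6 lay nearest to Tnfrsf8, Micalcl, Ngb and Irs4 at 0.063 to 0.087. Ngb is the neuronal globin and Irs4 an insulin receptor substrate of hypothalamic neurons. Aqp1 lay nearest to Itga2, Anxa4, Slc9a2 and Wnt4 (0.062 to 0.092), and Sostdc1 to Cdt1, Greb1l, Sp9 and Mfng (0.11 to 0.12), while Vamp5, Cxcl16 and Lgals1 were among the nearest to Cldn2 (0.11 to 0.17). These likenesses rest on 6 libraries, which all the genes share, and are descriptions. That of Aqp1 also rests on 7 to 16 counts per library.

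Otx2 and Slc4a5 shared the low value in wild-type 1 with several transcription factors. Nearest to Otx2 were Cpne9, Neurod2, Grm2 and Emx2os (0.17 to 0.25), followed by Foxb1, a forkhead gene of the mammillary region. Foxb1 had 143 counts in wild-type 1 and 912 to 1468 in the other libraries. Nearest to Slc4a5 were Foxa1, Lmx1b, Csf2rb2 and Dmrta2 (0.17 to 0.27). Foxa1 had 42 counts in wild-type 1 and 137 to 378 elsewhere. Slc4a5 itself had 0 to 16 counts per library, so its profile carries wide counting error.

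**Figure D4:**
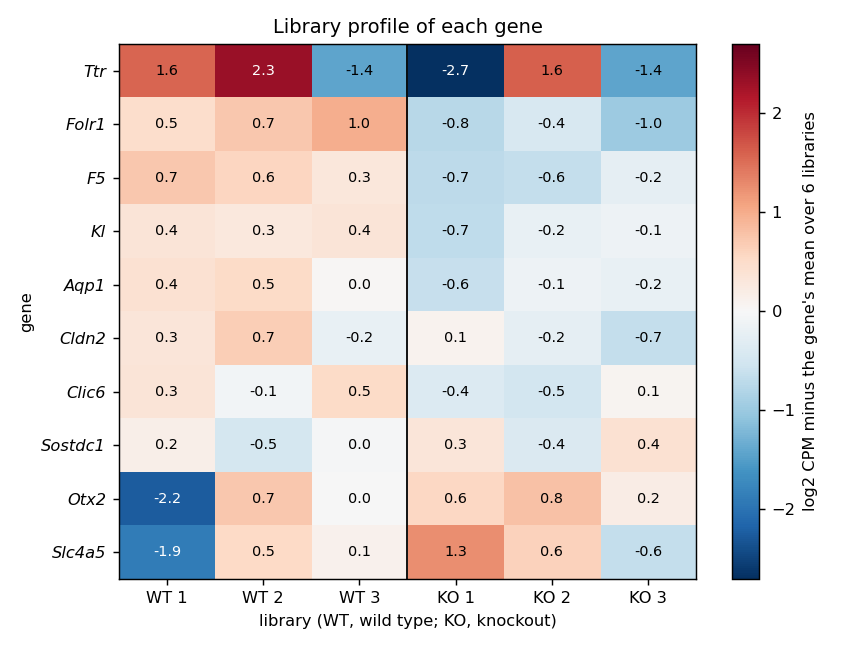
Log2 CPM of each listed gene minus its mean over the 6 libraries, by library; red is above the gene's mean and blue below. Ttr is high in wild-type 1, wild-type 2 and knockout 2, Folr1, F5, Kl and Aqp1 are higher in wild type than in the knockout, and Otx2 and Slc4a5 are lowest in wild-type 1.

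Among the pairs of listed genes, the nearest profiles were those of Aqp1 and Kl, with a root mean square difference of 0.17 on the log2 scale. Aqp1 had only 7 to 16 counts per library, so its profile and its rank carry wide counting error. Clic6 and Kl followed at 0.25, F5 and Kl at 0.27, and Aqp1 and F5 at 0.27. The farthest pair was Slc4a5 and Ttr at 2.41, and the 9 pairs that include Ttr were the 9 most distant of all 45. The measure grows with the size of a gene's swings between libraries, so this rank does not show a different library order. The SD of the centred profile was 2.09 for Ttr, against 0.37 to 1.14 for the other listed genes. The 8 genes nearest to the mean profile of the 10, at 0.064 to 0.11, included Serpinb6b, Trim12c, Phyhd1, Gpr179, Zfp217, Col4a5 and Samd9l, and none of these is a marker on the lists used here.

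Among markers of cells along the ventricle and the brain surface, edgeR called 8 of 10 tanycyte, 4 of 11 ependymal and 1 of 11 meningeal markers lower in the knockout, and 0 higher. Over all tested genes it called 0.592% lower and 0.242% higher. The 10 tanycyte markers summed to 177, 207 and 244 CPM in wild type, against 86.0, 85.3 and 86.7 CPM without SRC-1. The 11 ependymal markers summed to 221, 218 and 206 CPM in wild type, against 104, 162 and 136 without SRC-1. The 11 meningeal markers summed to 101, 187 and 48.6 CPM in wild type, against 41.8, 40.4 and 40.2 without SRC-1, so wild-type 3 lay near the knockout libraries. None of these 32 markers was at 0 in any library. Their part in the differences of the listed genes was not tested.

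Of 29 further genes that are enriched in this epithelium, 24 were tested, 1 fell (Krt18, a keratin of simple epithelia) and 0 rose in edgeR, with a median log2 fold change of -0.15. At an unadjusted p under 0.05 in edgeR there were 7, against 13% of all tested genes. DESeq2 called 5 lower, limma-voom 1 lower and its version with quality weights 3 lower, and none of these tools called any higher. The gene called by limma-voom was Calml4 (adjusted p 0.0493), not Krt18 (adjusted p 0.0623). Mfrp, which encodes a membrane frizzled-related protein, had 0 counts in every library, so it lay under the fixed floor of 3 counts in each. Krt18 went from 3.83 to 1.71 CPM (-1.16 ± 0.22, edgeR adjusted p 0.0447), and passed in 1 of 6 fits with a library left out, the one without knockout 2 (adjusted p from 0.0325 to 0.192).

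Calml4, a calmodulin-like protein of epithelial brush borders, had 154, 116 and 126 counts in wild type, against 18, 60 and 27 without SRC-1 (-1.97 ± 0.41, edgeR adjusted p 0.0792). Wfikkn2, a secreted antagonist of myostatin, had a log2 fold change of -1.24 ± 0.31 (adjusted p 0.0962 in edgeR). Of 12 genes that the plexus shares with other brain cells, Enpp2, which makes lysophosphatidic acid and is also made by oligodendrocytes, rose from 185.7 to 276 CPM (0.57 ± 0.10, edgeR adjusted p 0.0381). In edgeR 0 of the 12 fell and the median log2 fold change was -0.01. An unadjusted p under 0.05 was found for 7, against 13% of all tested genes. DESeq2 called 2 of the 12 higher and 1 lower, limma-voom 0 and its version with quality weights 1 higher. Enpp2 passed in 2 of 6 fits with a library left out, those without wild-type 2 and knockout 3 (adjusted p from 0.0204 to 0.135). The summed level of 7 oligodendrocyte markers was 3435, 4292 and 4195 CPM in wild type, against 7354, 6234 and 5496 CPM without SRC-1. Its part in the Enpp2 rise was not tested.

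The pathways of the listed genes were examined next. Over all tested genes, edgeR called 0.592% lower and 0.242% higher, and 13% had an unadjusted p under 0.05. These shares stand beside the edgeR counts below and not beside those of the other tools. For the carriage of thyroxine and retinol, the role of Ttr, 8 of 9 genes were tested, and in edgeR 2 fell, 0 rose and 4 had an unadjusted p under 0.05 (median log2 fold change -0.62). Both limma-voom fits and DESeq2 also called 2 lower, and DESeq2 called 1 higher. Lrp2, the endocytic receptor megalin that takes up retinol and its carriers, fell from 7.77 to 3.29 CPM (-1.24 ± 0.18, adjusted p 0.0178 in edgeR). It passed in 6 of 6 fits with a library left out. It fell beside the lower tanycyte and ependymal sums given above, whose part in this fall was not tested. Rbp4, the retinol carrier that binds Ttr in plasma, had 295, 367 and 199 counts in wild type, against 137, 214 and 96 without SRC-1 (-1.02 ± 0.41, edgeR adjusted p 0.373). Its counts were highest in wild-type 2, wild-type 1 and knockout 2, the libraries highest in Ttr, with knockout 2 only slightly above wild-type 3. The part of hepatocyte RNA in the Rbp4 level was not tested.

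For folate handling, the role of Folr1, 9 of 9 genes were tested and 0 were called by edgeR, DESeq2 or either limma-voom fit, with 0 at an unadjusted p under 0.05. Slc46a1, the proton-coupled folate transporter, had 7.02 CPM in wild type and 6.48 in the knockout (-0.11 ± 0.13). For klotho and its growth factors, 9 of 12 were tested, 0 were called by edgeR and 2 had an unadjusted p under 0.05. DESeq2 called 1 higher and the limma-voom fits 0. Klb, the related co-receptor beta-klotho, had 87, 74 and 54 counts in wild type, against 49, 40 and 46 without SRC-1 (-0.76 ± 0.24, edgeR adjusted p 0.195).

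For BMP and Wnt signals around Sostdc1, 15 of 16 were tested and 0 were called by any of the 4 tools, with 2 at an unadjusted p under 0.05 in edgeR. For coagulation around F5, 14 of 15 were tested, 0 were called by edgeR and 4 had an unadjusted p under 0.05. DESeq2 called 2 lower and the limma-voom fits 0. The median log2 fold change was -0.75 with 14 of 14 negative, beside 48.9% negative over all tested genes. All 26 tested hepatocyte genes were negative too (median -1.51), with 0 called by edgeR. The part of hepatocyte RNA in the coagulation list was not tested. F2, F7, F10, Proc and Serpinc1 of this list are made in liver, and F2, prothrombin, had 52, 74 and 8 counts in wild type, against 7, 47 and 6 without SRC-1, high in the same 3 libraries as Ttr.

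For water and ion transport, where Aqp1, Slc4a5 and Clic6 act, 23 of 23 were tested, and in edgeR 1 rose, 0 fell and 9 had an unadjusted p under 0.05 (median log2 fold change 0.10). DESeq2 called 3 higher and 3 lower, limma-voom 0, and its version with quality weights 1 higher and 1 lower. Car2, a carbonic anhydrase that oligodendrocytes also make, rose from 124.7 to 198 CPM (0.67 ± 0.12, edgeR adjusted p 0.0417). It passed in 2 of 6 fits with a library left out, and missed the threshold when wild-type 1, wild-type 3, knockout 1 or knockout 2 was dropped (edgeR adjusted p up to 0.138). Aqp4, the astrocyte water channel, had 133 CPM in wild type and 156 in the knockout (0.23 ± 0.099, adjusted p 0.373 in edgeR).

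For claudins and tight junctions beside Cldn2, 9 of 10 were tested, and in edgeR 1 rose, 0 fell and 2 had an unadjusted p under 0.05 (median log2 fold change 0.14). DESeq2 and quality-weighted limma-voom called 1 higher, and limma-voom without weights 0. Cldn11, the claudin of myelin, rose from 85.6 to 124 CPM (0.53 ± 0.091, edgeR adjusted p 0.033), and failed without wild-type 1, wild-type 3 or knockout 1 (adjusted p up to 0.122). Car2 and Cldn11 rose beside the higher oligodendrocyte sum, and its part in them was not tested either. For roof plate and Otx-related factors, 7 of 9 were tested and 0 were called by edgeR, with 2 at an unadjusted p under 0.05. DESeq2 called 1 lower and the limma-voom fits 0. Otx1, the paralog of Otx2, had 71, 105 and 116 counts in wild type, against 130, 156 and 109 without SRC-1, and Lmx1a, a roof plate factor also expressed in posterior hypothalamus, 23, 316 and 387 against 546, 408 and 137. Both genes were lowest in wild-type 1, as Otx2 was.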

How the data were processed

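The authors deposited raw counts of read pairs per gene, without normalization, and the gene lengths, per the file headers. Per the submitters' processing notes, the aligner was STAR 2.7.10a. Pairs were counted with featureCounts over exons of the mm39 RefSeq annotation, per the file headers, which give version 2.0.0 where the processing notes give 2.0.3. No strand or multi-mapping option was set, so antisense overlap cannot be told apart. Columns were matched to samples by library code, with 0 unused columns and 0 rows without a gene name.

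Genotypes were compared with edgeR 4.0.16 in R 4.3.3 (TMM, expression filter with a minimum count of 10, robust quasi-likelihood tests, Benjamini-Hochberg adjusted p under 0.05 over all 20257 tested genes). The SE is the log2 fold change over the square root of F. Profiles used log2 CPM with a prior count of 2. The fit was tested on simulated data, with changes only in genes with a wild-type mean of at least 1 CPM. Folr1, Aqp1 and Cldn2 lie below that level, so the simulation tested no change at theirs. An exact permutation test of 3 against 3 cannot go below p = 0.1, so none was made.

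The members, lists and rule for named genes were chosen with earlier results of these data known. The rule named all 10 members, list members past the threshold, the 4 lowest p of the wider plexus list and the 8 nearest profiles to Ttr and to the members' mean. Some genes that the rule names are not reported here. The hepatocyte list, the nearest profiles of the other members, and the pathway genes named without a call were chosen after values were seen. DESeq2 1.42.0, limma-voom 3.58.1, other scalings and filters, a replicate block and each library left out were alternatives. A fit without the 3 libraries with most albumin counts was added after seeing the data.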

Additional observations from a re-analysis of the deposited data

How the results depend on the processing

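None of the 9 tested members changed direction under the alternatives that gave a value, 15 for 6 members and 14 for Folr1, Aqp1 and Cldn2, which the filter of at least 1 CPM in 3 libraries leaves out. Of these 132 values, 10 passed the threshold that had been missed. The number of members called lower was 0 in edgeR and 3 with no filter, with DESeq2 and under voom quality weights. With no filter the 3 were Folr1, Kl and F5, with adjusted p of 0.00262, 4.6e-05 and 0.00126. It was 0 to 0 with 1 library left out in turn, and 0 also without the 3 libraries with most albumin counts, where 1 wild-type library is assumed to vary like the knockout ones. Ttr was then at -0.51. The labels state no pairing by replicate number, and 3 libraries per genotype are too few to decide it. Deviations from the group means of same-numbered libraries correlated at -0.21, 0.35 and 0.22, and not every library correlated best with its own number. With the replicate number as a block, 1 member was called lower (Clic6, adjusted p 0.0415), and 0 of the wider plexus list in either direction. In that wider list, 1 gene was called lower and 1 higher. Library totals alone and the filter of at least 1 CPM in 3 libraries gave 0 and 0, no filter 5 and 2, DESeq2 6 and 2, limma-voom 1 and 0, quality weights 3 and 1, and the fit without the albumin-rich libraries 3 and 0. With 1 library left out the lower calls ran from 0 to 3 and the higher calls from 0 to 1. Over all genes, edgeR called 120 lower and 49 higher, against 616 and 350 with no filter. DESeq2 called 533 and 292, and limma-voom with quality weights 266 and 135. The cause of these differences was not tested. Depth limits Folr1, Aqp1 and Slc4a5 most, at 34 counts or fewer per library.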

Other observations

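Kcnj13 and Slc13a4, plexus-enriched genes outside the 10, had library orders that differed in part from those of Ttr and Folr1. Kcnj13, an inward rectifier potassium channel of the apical plexus membrane, had 98, 227 and 15 counts in wild type, against 9, 11 and 17 without SRC-1 (-3.31 ± 1.10, edgeR adjusted p 0.312). DESeq2 called it lower (adjusted p 0.0329), as did edgeR without wild-type 3 (-3.84, adjusted p 0.0154). Neither limma-voom nor its version with quality weights did (adjusted p 0.41 and 0.2). Slc13a4, a sulphate transporter also found in the leptomeninges, had 539, 1201 and 71 against 67, 124 and 105 (-2.73 ± 1.15, edgeR adjusted p 0.448). Both were highest in wild-type 2 and next in wild-type 1, the order of the meningeal marker sum (187 and 101 CPM). Ttr and Folr1 were high in those 2 libraries too. Knockout 2, which was high in Ttr, and wild-type 3, which was high in Folr1, lay far below them in Kcnj13 and Slc13a4. Prlr, the prolactin receptor, which hypothalamic neurons also make, had 1081 to 2873 counts and overlapped between the genotypes. These genes were chosen after their values were seen.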
